A study of Homo sapiens with 6 samples.

Results

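Metallothioneins, their transcription factor MTF1 and zinc transporters were examined in liver metastases grown from SW480, a long-established line of human colorectal cancer cells. The 10 members were taken by gene symbol from the 58884 gene identifiers of the count table, and all 10 had counts. They are the metallothionein genes MT1E, MT1F, MT1G, MT1X and MT2A, the factor gene MTF1, the zinc exporter gene SLC30A1, and the zinc importer genes SLC39A4, SLC39A6 and SLC39A14. Of these, 9 passed a filter on low counts that left 15804 genes for testing, and MT1G did not. The sgITPR3 cells carried a guide RNA against ITPR3, the gene of a calcium channel of the endoplasmic reticulum, and the sgCtrl cells carried a control guide RNA. Cells of both groups had been placed in the portal circulation of immunodeficient NSG mice, and the human cells were recovered from the digested livers by density gradient and depletion of mouse cells. There were 3 libraries of each group, made from polyadenylated RNA as tags of the 3' end of transcripts. The sources used here do not say whether each library came from its own animal, nor how many guides or clones were used, and the p-values therefore reflect the spread among these 6 libraries, which may be technical.

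Metallothioneins are small, cysteine-rich proteins that bind zinc, copper and cadmium and buffer the free zinc of the cell. Their genes lie in a cluster on chromosome 16 and are switched on by MTF1, a zinc-sensing factor that binds metal response elements in their promoters. Glucocorticoids and interleukin 6 also induce them, above all in liver. Zinc leaves the cytosol through the SLC30A (ZnT) carriers and enters it through the SLC39A (ZIP) carriers, and cells commonly adjust these carriers and the metallothioneins together when zinc supply changes.

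The metallothioneins are near-identical in their coding bases, which is why their counts need care. The coding sequences of the 4 tested member metallothioneins are given to show how few bases tell them apart. Each has 186 coding bases with the stop codon and encodes 61 residues. Capitals in MT1E, MT1X and MT1F mark bases that differ from MT2A at the same position, 14 in MT1E, 14 in MT1X and 16 in MT1F. Sequences were read from GENCODE 29 transcripts (GRCh38, plus strand of chromosome 16).
MT2A: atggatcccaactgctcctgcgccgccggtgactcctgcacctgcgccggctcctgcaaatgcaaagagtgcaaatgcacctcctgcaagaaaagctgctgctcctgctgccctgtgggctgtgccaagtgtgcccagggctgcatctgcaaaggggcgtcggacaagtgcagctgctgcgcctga
MT1E: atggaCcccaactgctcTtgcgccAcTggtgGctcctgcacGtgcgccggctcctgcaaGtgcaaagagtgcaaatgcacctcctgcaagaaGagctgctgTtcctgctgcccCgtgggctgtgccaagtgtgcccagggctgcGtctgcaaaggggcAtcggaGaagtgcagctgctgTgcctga
MT1X: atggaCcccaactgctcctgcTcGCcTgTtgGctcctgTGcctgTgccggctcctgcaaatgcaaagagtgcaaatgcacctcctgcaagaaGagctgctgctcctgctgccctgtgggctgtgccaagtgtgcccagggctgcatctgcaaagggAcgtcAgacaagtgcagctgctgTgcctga
MT1F: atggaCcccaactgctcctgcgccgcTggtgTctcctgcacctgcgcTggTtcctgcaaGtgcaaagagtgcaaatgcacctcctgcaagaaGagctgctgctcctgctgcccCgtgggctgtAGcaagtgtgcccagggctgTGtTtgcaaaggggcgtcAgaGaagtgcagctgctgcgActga
Among the coding sequences of the 5 member metallothioneins, pairwise identity was 88.7% to 95.2%. The 3' tags read the ends of the transcripts. Of the 251 stretches of 50 bases in the last 300 bases of each transcript, the number also found in a transcript of another gene was 36 for MT2A, 30 for MT1E, 23 for MT1F and 77 for MT1X. It was 72 for MT1G and 0 for MTF1 and each of the 4 transporter members. How reads that align to several places were handled is not stated in the sources used here, so single metallothionein counts are uncertain to the extent that such reads were kept or dropped, and the sum over the genes is given beside them.

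The promoters of MT2A and MT1X are shown because their genes moved together, and that of SLC30A1, another gene known as an MTF1 target, because its gene did not pass the test. Each is the 250 bases before the RefSeq start (GRCh38.p14), on the strand of the gene. The MT2A window lies within the longer span that GENCODE 29 gives the gene. The MT1X window, and those of SLC39A6 and MTF1, which are not printed, overlap the GENCODE 29 spans of their genes in part. The core found for SLC39A6 lies in the overlapping part. The SLC30A1 window begins at 211579162, apart from the GENCODE 29 start of the gene at 211578742. The bases between them were not searched, so its count of cores depends on the start used. Capitals mark the core of the metal response element, searched as TGCACNC and TGCGCNC on both strands, where N is any base.
MT2A, chr16:56608334-56608583, plus strand: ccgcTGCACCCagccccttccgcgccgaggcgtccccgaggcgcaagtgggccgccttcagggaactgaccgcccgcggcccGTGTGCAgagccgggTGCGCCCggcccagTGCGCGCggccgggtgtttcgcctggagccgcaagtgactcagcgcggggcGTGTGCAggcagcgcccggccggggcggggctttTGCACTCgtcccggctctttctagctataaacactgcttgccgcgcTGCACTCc
MT1X, chr16:56682220-56682469, plus strand: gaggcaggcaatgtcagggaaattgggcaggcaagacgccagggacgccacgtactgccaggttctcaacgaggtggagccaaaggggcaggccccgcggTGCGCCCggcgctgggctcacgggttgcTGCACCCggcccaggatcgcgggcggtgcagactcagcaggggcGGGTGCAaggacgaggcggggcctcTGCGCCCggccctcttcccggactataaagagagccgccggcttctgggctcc
SLC30A1, chr1:211579162-211579411, minus strand: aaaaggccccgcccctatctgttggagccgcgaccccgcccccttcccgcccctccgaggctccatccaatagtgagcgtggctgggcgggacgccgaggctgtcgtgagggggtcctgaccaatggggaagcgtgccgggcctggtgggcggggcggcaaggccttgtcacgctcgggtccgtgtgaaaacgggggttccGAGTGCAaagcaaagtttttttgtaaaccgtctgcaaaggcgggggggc
The MT2A window held 7 cores and the MT1X window 4. The SLC30A1 and SLC39A6 windows held 1 core each and the MTF1 window 0. Of all 35116 promoters of the table, 0.0313% held at least 7 cores, 0.37% at least 4 and 24.8% at least 1. These matches are letters in a window and do not show binding. The promoter table held 5 of the 10 members. MT1E, MT1F, MT1G, SLC39A4 and SLC39A14 were not searched.

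**Figure D1:**
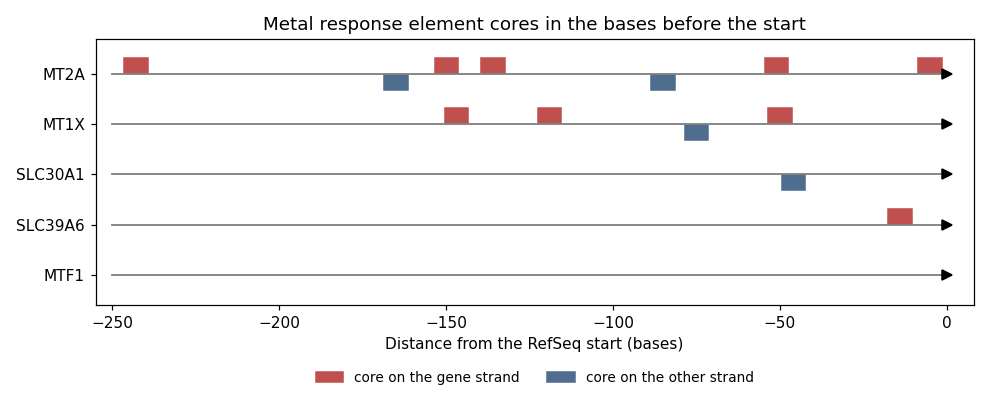
Positions of the metal response element core in the 250 bases before the RefSeq start, with distance from the start in bases on the x axis and 1 line per gene; boxes above a line are cores on the gene strand and boxes below it are cores on the other strand. MT2A has 7 boxes, MT1X 4, SLC30A1 and SLC39A6 1 each, and MTF1 0.

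Libraries held 19140055 to 23943797 counts, so 1 count was worth 0.0405 to 0.0538 CPM, that is, gene counts scaled to a common library size after TMM correction. Levels are given in CPM, and mean ± SD are over n = 3 libraries per group. The targeted gene ITPR3 was at 39.4, 41.0 and 46.2 CPM in sgITPR3 and at 107.5, 93.9 and 94.2 CPM in sgCtrl, with no overlap. Per the labels the knockout was checked on protein, and where the guide cuts is not known here, so the 3' tags do not measure the edit itself. The epithelial markers KRT18 (1089 ± 39.2 CPM in sgITPR3 and 1255 ± 100.2 CPM in sgCtrl) and EPCAM (307 ± 37.4 CPM in sgITPR3 and 382 ± 39.3 CPM in sgCtrl) were abundant, while the gut markers KRT20, CDX1 and CDH17 had at most 9 counts in any library. Of the 11 epithelial and gut markers listed, 7 were tested, 3 fell, KRT19 and EPCAM among them, and 2 rose, VIL1 and CDX2. The call of EPCAM was lost without sgCtrl replicate 1, sgCtrl replicate 2 or sgITPR3 replicate 3 (edgeR adjusted p = 0.0519, 0.0562 and 0.106), and that of CDX2 without sgITPR3 replicate 1 or 2 (0.0598 and 0.0617). KRT18 did not pass (edgeR adjusted p = 0.0521), but passed as lower by DESeq2 (0.0187), limma-voom (0.0349) and in 4 other alternatives. Of 10 markers of stroma, blood and immune cells, 1 was tested, COL1A1, which rose but lost its call without any of 5 libraries (edgeR adjusted p = 0.0573 to 0.132). The 10 summed to 9.19 to 11.8 CPM in sgITPR3 and to 6.62 to 7.91 CPM in sgCtrl. Counts of hepatocyte marker genes were present in libraries of both groups. The host livers were of mice and the counts are of human genes, and whether mouse reads entered the counts was not tested. The 12 hepatocyte markers summed to 149.8 to 297 CPM in sgITPR3 and to 66.9 to 256 CPM in sgCtrl. Of these, ALB was at 231.6, 152.6 and 111.5 CPM in sgITPR3 and at 33.8, 169.7 and 21.6 CPM in sgCtrl, so that sgCtrl replicate 2 lay within the sgITPR3 range, and APOC3 was at 0 in every library. Of the 7 hepatocyte markers tested, SERPINA1 was lower and APOA1 higher in sgITPR3, and 5 did not pass. By limma-voom 3 were higher, and by DESeq2 0. FGB did not pass (log2 fold change 1.15, edgeR adjusted p = 0.0705). It passed as higher by limma-voom (0.0174), with the replicate number as a block (edgeR adjusted p = 0.0147) and with no filter on low counts. It also passed without sgCtrl replicate 2 (log2 fold change 2.29, edgeR adjusted p = 6.13e-06). With the ALB covariate its log2 fold change was 0.074 (0.824). The call of APOA1 was lost by DESeq2 and without any of 4 libraries (edgeR adjusted p = 0.110 to 0.150 without them). SERPINA1 was at 16.4, 12.4 and 12.9 CPM in sgITPR3 and at 45.3, 45.8 and 38.9 CPM in sgCtrl. Without ALB, the hepatocyte markers summed to 38.3 to 65.7 CPM in sgITPR3 and to 45.3 to 86.1 CPM in sgCtrl. That sum includes SERPINA1, at a mean of 13.9 CPM in sgITPR3 and 43.3 CPM in sgCtrl. It therefore does not show that the other hepatocyte markers were lower in sgITPR3, and no sum without both genes was made. The part of the stromal and epithelial marker differences in the results was not tested. In bulk RNA, fewer cells of a type and less RNA per cell cannot be told apart.

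The comparison asked which of these genes differ when ITPR3 is targeted. All 4 tested member metallothioneins fell in sgITPR3, by 1.31-fold to 1.77-fold, and MTF1 and the 4 member transporters did not pass the test. Of 9 members with a test, 4 fell, none rose and 5 missed the threshold (edgeR quasi-likelihood test, Benjamini-Hochberg adjusted p under 0.05 over all genes tested). Over all 15804 genes tested, 23.5% passed in either direction, 11.9% as lower and 11.6% as higher. No member rose by the adjusted p of DESeq2 or limma-voom either, or at an unadjusted edgeR p under 0.05. The median log2 fold change of the 4 tested member metallothioneins was -0.63 and that of the 4 member transporters was -0.14, against 0.00086 over all genes tested.

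**Figure D2:**
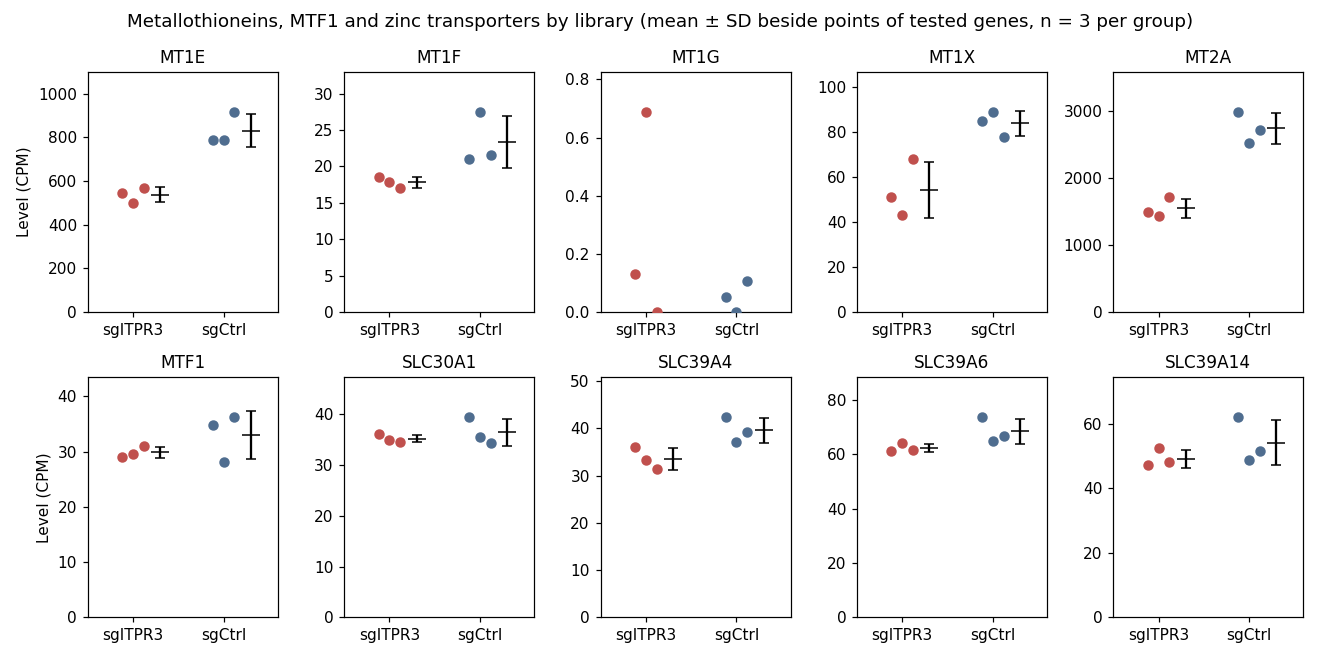
Level of each member in CPM (y axis, from 0, a separate scale for each gene) by group, with 1 point per library and the mean ± SD beside the points for tested genes. For MT2A, MT1E, MT1X and MT1F every sgITPR3 point lies below every sgCtrl point. For MTF1, SLC30A1 and SLC39A14 the groups overlap.

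MT2A encodes the metallothionein most widely expressed in human tissues. It was at 1496, 1432 and 1711 CPM in the sgITPR3 libraries, against 2984, 2527 and 2713 CPM in the sgCtrl libraries. The highest sgITPR3 library lay well below the lowest sgCtrl library. The mean was 1546 ± 146 CPM in sgITPR3 and 2742 ± 229.9 CPM in sgCtrl, a 1.77-fold decrease (log2 fold change -0.83 with an SE of 0.083, edgeR adjusted p = 6.19e-06). MT2A (ENSG00000125148) spans 56608199 to 56609497 on the plus strand of chromosome 16, with positions here and for the other genes in GRCh38 from GENCODE 29.

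MT1E (ENSG00000169715, chromosome 16, 56625475 to 56627112, plus strand) encodes a metallothionein of the MT1 group. Its level was 547, 501 and 568 CPM in the sgITPR3 libraries, against 789, 788 and 917 CPM in the sgCtrl libraries. The groups did not overlap, and sgCtrl replicate 3 stood above the other sgCtrl libraries. The decrease was 1.54-fold (log2 fold change -0.63 with an SE of 0.077, edgeR adjusted p = 4.38e-05).

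MT1X (ENSG00000187193, chromosome 16, 56682424 to 56684196, plus strand), the last gene of the cluster, was at 51.1, 43.3 and 67.7 CPM in the sgITPR3 libraries and at 84.9, 88.8 and 77.8 CPM in the sgCtrl libraries. The sgITPR3 libraries were the more spread, and the highest of them, replicate 3, came closest to the sgCtrl range. The fall was 1.56-fold (log2 fold change -0.64 with an SE of 0.12, edgeR adjusted p = 0.00181). MT1X overlaps the transcript ENSG00000259827 on its own strand, which had 0 counts in all libraries.

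MT1F (ENSG00000198417, chromosome 16, 56657694 to 56660698, plus strand) had the smallest fall of the 4. It was at 18.5, 17.9 and 17.1 CPM in the sgITPR3 libraries and at 21.0, 27.5 and 21.6 CPM in the sgCtrl libraries. The groups did not overlap, but the sgCtrl mean leaned on replicate 2. The decrease was 1.31-fold (log2 fold change -0.39 with an SE of 0.11, edgeR adjusted p = 0.0223). The call was lost without sgCtrl replicate 2 (log2 fold change -0.26, edgeR adjusted p = 0.0930), without sgITPR3 replicate 2 (-0.39, adjusted p = 0.0661) and without sgITPR3 replicate 3 (-0.36, adjusted p = 0.0738).

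MT1G (ENSG00000125144, chromosome 16, 56666731 to 56668065, minus strand) was almost silent. It had 3, 17 and 0 counts in the sgITPR3 libraries and 1, 0 and 2 counts in the sgCtrl libraries. Only sgITPR3 replicate 2 exceeded 3 counts, and no change was tested. When the filter on low counts was left out, its adjusted p by edgeR was 0.193.

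Summed over the 5 member metallothioneins, which is less affected by how reads were split among them, the level was 2112, 1996 and 2363 CPM in the sgITPR3 libraries and 3879.8, 3432 and 3729.7 CPM in the sgCtrl libraries. The mean was 2157 ± 188 CPM in sgITPR3 and 3680.5 ± 228 CPM in sgCtrl, 1.71-fold lower, with no overlap. No test was run on the sum. Together they made up 0.206% to 0.240% of all counts of a library in sgITPR3 and 0.344% to 0.373% in sgCtrl. Of all metallothionein counts, 68.6% to 70.1% were assigned to MT2A in sgITPR3 and 70.5% to 74.5% in sgCtrl, and 23.3% to 25.1% were assigned to MT1E in sgITPR3 and 19.7% to 23.8% in sgCtrl. MT3, described further on, took 0.530% to 0.628% in sgITPR3 and 0.185% to 0.270% in sgCtrl. These are shares of counts and not of transcript length.

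**Figure D3:**
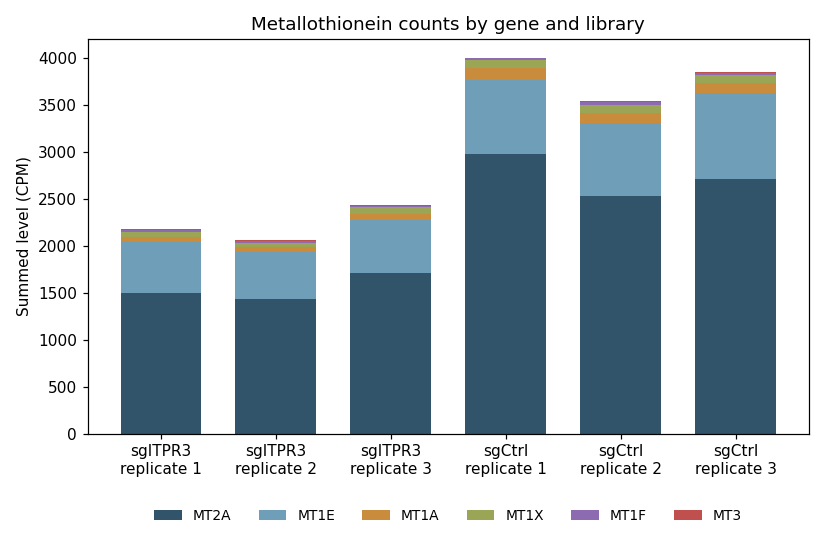
Level of the metallothioneins in CPM (y axis, from 0) stacked by gene for each library (x axis), for MT2A, MT1E, MT1A, MT1X, MT1F and MT3. All 3 sgITPR3 stacks are lower than all 3 sgCtrl stacks, and MT2A and MT1E fill most of each stack.

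Hepatocytes also make metallothioneins, and counts of hepatocyte marker genes differed between libraries. ALB was higher in every sgITPR3 library than in sgCtrl replicates 1 and 3. Within sgCtrl, replicate 2, with ALB at 169.7 CPM, had the lowest MT2A, at 2527 CPM, but the highest MT1X, at 88.8 CPM, and the highest MT1F, at 27.5 CPM. Its MT1E, at 788 CPM, was level with that of replicate 1, at 789 CPM. With the ALB level as a covariate in the fit, the log2 fold change was -0.72 for MT2A (edgeR adjusted p = 2.34e-05), -0.54 for MT1E (adjusted p = 4.18e-04), -0.66 for MT1X (adjusted p = 0.00443) and -0.59 for MT1F (adjusted p = 0.00328), and each passed as lower. How much of any metallothionein count came from hepatocytes of the mouse host was not tested.

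MTF1 (ENSG00000188786, chromosome 1, 37809567 to 37859620, minus strand), which encodes the zinc-sensing activator of the metallothionein genes, was at 29.1, 29.6 and 31.0 CPM in the sgITPR3 libraries. In the sgCtrl libraries it was at 34.7, 28.1 and 36.3 CPM. The sgITPR3 libraries lay within the sgCtrl range, whose lowest value was that of replicate 2. The log2 fold change was -0.15 (95% interval -0.36 to 0.066, edgeR adjusted p = 0.317), and with ALB as a covariate it was 0.063. Without sgCtrl replicate 2 it was -0.25 and came near the threshold (edgeR adjusted p = 0.0513). The mRNA level does not measure the activity of the factor, which zinc binding controls.

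SLC30A1 (ENSG00000170385, chromosome 1, 211571568 to 211578742, minus strand) encodes ZnT1, the exporter of the plasma membrane that MTF1 is known to induce. It was at 36.0, 34.9 and 34.5 CPM in the sgITPR3 libraries and at 39.4, 35.4 and 34.3 CPM in the sgCtrl libraries. The ranges overlapped. The log2 fold change was -0.049, with a 95% interval of -0.22 to 0.13 (edgeR adjusted p = 0.716). That interval leaves out a change as large as the estimate for MT2A, MT1E, MT1X or MT1F, but overlaps the interval of MT1F (-0.63 to -0.15). Without sgCtrl replicate 1 the log2 fold change of SLC30A1 was 0.0058.

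Of the 3 member importers, 0 passed the test, and SLC39A4 came nearest. SLC39A4 (ENSG00000147804, chromosome 8, 144409742 to 144416895, minus strand) encodes ZIP4, the importer through which the gut takes up dietary zinc. It was at 36.1, 33.3 and 31.4 CPM in the sgITPR3 libraries and at 42.4, 37.1 and 39.3 CPM in the sgCtrl libraries. The groups did not overlap, yet the gap between them was small (log2 fold change -0.24, 95% interval -0.42 to -0.052, edgeR adjusted p = 0.0609). Without sgCtrl replicate 2 it passed as lower (log2 fold change -0.28, edgeR adjusted p = 0.0323). An antisense gene overlaps it, ENSG00000272115, with 10 counts over all libraries.

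SLC39A6 (ENSG00000141424, chromosome 18, 36108532 to 36129385, minus strand) encodes ZIP6, an importer of the plasma membrane known from breast cancer as LIV-1. It was at 61.1, 64.1 and 61.8 CPM in the sgITPR3 libraries and at 73.7, 64.8 and 67.0 CPM in the sgCtrl libraries. Its ranges did not overlap by a narrow margin (log2 fold change -0.14, 95% interval -0.29 to 0.020, edgeR adjusted p = 0.198). Ranges without overlap were common here, at 39.3% of all genes tested, and 6 of the 9 tested members had them.

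SLC39A14 (ENSG00000104635, chromosome 8, 22367249 to 22434129, plus strand) encodes ZIP14, which carries zinc, iron and manganese into hepatocytes and other cells and is induced by interleukin 6. It was at 47.1, 52.3 and 48.0 CPM in the sgITPR3 libraries and at 62.0, 48.7 and 51.6 CPM in the sgCtrl libraries, where replicate 1 stood above all others. The log2 fold change was -0.14 (95% interval -0.33 to 0.059, edgeR adjusted p = 0.310). Among the 4 member transporters, 0 were called by the adjusted p of edgeR, DESeq2 or limma-voom, and 1, SLC39A4, had an unadjusted edgeR p under 0.05.

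**Figure D4:**
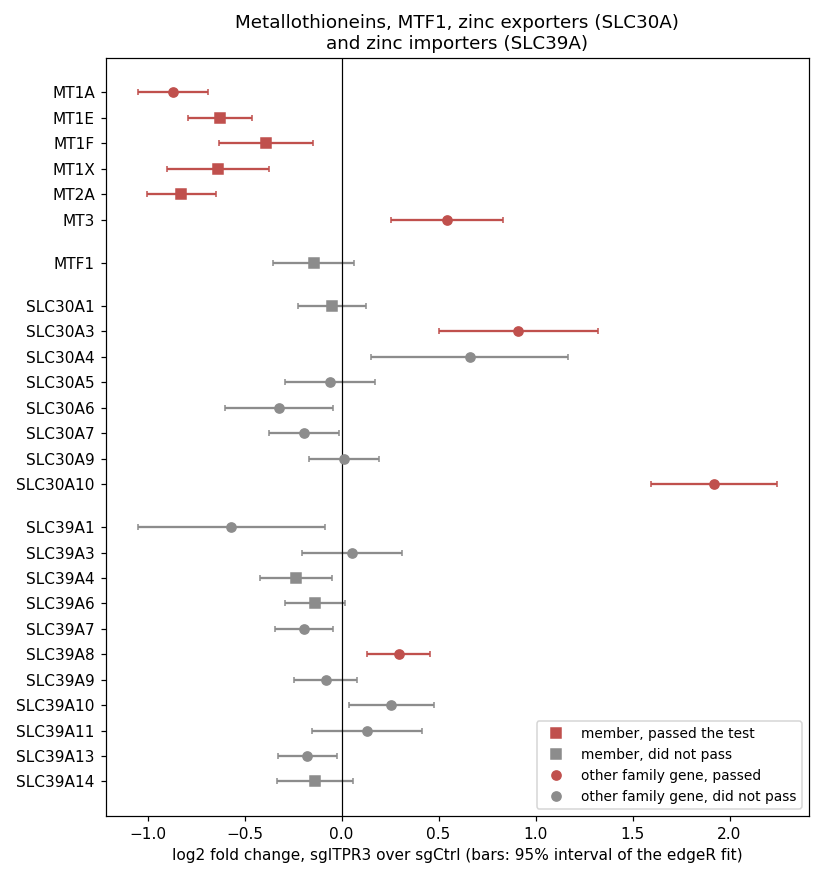
Log2 fold change of sgITPR3 over sgCtrl (x axis) with its 95% interval from the edgeR fit for every tested metallothionein, MTF1, zinc exporter (SLC30A) and zinc importer (SLC39A); squares are members, circles other genes of the families, and red marks genes that passed the test. MT1A, MT2A, MT1X, MT1E and MT1F lie left of 0, while MT3, SLC30A3, SLC30A10 and SLC39A8 passed to the right of it.

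The other metallothioneins split. Of the 7 listed, 2 could be tested, and 1 fell and 1 rose. MT1A (chromosome 16, 56638666 to 56640087), which lies between MT1E and MT1F, was at 55.9, 58.6 and 64.7 CPM in the sgITPR3 libraries and at 119.7, 98.6 and 108.8 CPM in the sgCtrl libraries. It was 1.83-fold lower (log2 fold change -0.87 with an SE of 0.084, edgeR adjusted p = 4.38e-06). MT3 (chromosome 16, 56589074 to 56591088), the metallothionein known from the brain, went the other way. It was at 13.4, 13.0 and 12.9 CPM in the sgITPR3 libraries and at 7.42, 9.15 and 10.4 CPM in the sgCtrl libraries, without overlap (log2 fold change 0.54 with an SE of 0.13, edgeR adjusted p = 0.00942). When ALB was a covariate it no longer passed (log2 fold change 0.56, edgeR adjusted p = 0.0555). None of its 251 stretches of 50 bases was found in another gene, and its coding bases were 72.5% to 75.4% identical to those of the 5 member metallothioneins. MT1B, MT1H, MT1HL1, MT1M and MT4 did not pass the filter, with at most 12 counts in any library. The 9 listed metallothionein pseudogenes had at most 19 counts in any library, and 0 of the 2 tested passed by the adjusted p of edgeR, DESeq2 or limma-voom or at an unadjusted edgeR p under 0.05.

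The genes next to the cluster were examined after the values above were seen. The metallothionein genes of the lists span 56565049 to 56684196 on chromosome 16. Of 25 other tested genes within 1 Mb of that span, 6 fell, 1 rose and the median log2 fold change was -0.23. Over all 729 tested genes of chromosome 16 that are not metallothioneins, these 25 included, 103 fell, 51 rose and the median was -0.06. Over all 15804 genes tested, 11.9% passed as lower and 11.6% as higher, with a median of 0.00086. The nearest tested genes on each side were BBS2, with a log2 fold change of -0.02 (edgeR adjusted p = 0.913), and NUP93, which encodes a protein of the nuclear pore and fell by 0.42 on the log2 scale (edgeR adjusted p = 8.07e-04).

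Most other zinc exporters did not pass, as among all genes tested, of which 23.5% passed. SLC30A10 and SLC30A3 rose. Of the 9 listed, 7 were tested, 2 rose, 0 fell and 5 did not pass. By adjusted p, 0 were lower by DESeq2 or limma-voom as well, while 2 were lower and 3 higher at an unadjusted edgeR p under 0.05. SLC30A10, which encodes a carrier best known for exporting manganese, was at 13.2, 12.6 and 11.1 CPM in the sgITPR3 libraries and at 3.39, 2.93 and 3.47 CPM in the sgCtrl libraries. The rise was 3.78-fold (log2 fold change 1.92 with an SE of 0.15, edgeR adjusted p = 5.57e-07), with no library near the other group. SLC30A3, which encodes the zinc carrier of synaptic vesicles, was named after its values were seen. It was at 4.92, 4.98 and 4.74 CPM in the sgITPR3 libraries and at 2.64, 2.49 and 2.67 CPM in the sgCtrl libraries (log2 fold change 0.91 with an SE of 0.19, edgeR adjusted p = 0.00337). SLC30A6 and SLC30A7, carriers of the secretory pathway, had log2 fold changes of -0.32 and -0.19 and did not pass (edgeR adjusted p = 0.0878 and 0.116). SLC30A6 passed as lower without sgCtrl replicate 3 (log2 fold change -0.46, edgeR adjusted p = 0.0162) and with no filter on low counts (0.0433).

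Of the 11 other zinc importers, 8 were tested, 1 rose, 0 fell and 7 did not pass, and by adjusted p 0 were lower by DESeq2 or limma-voom as well. At an unadjusted edgeR p under 0.05, 3 were lower and 2 higher. The importer gene that rose was SLC39A8, which encodes ZIP8, a close relative of ZIP14 that also carries manganese. It was at 109.9, 107.6 and 96.0 CPM in the sgITPR3 libraries and at 87.1, 89.1 and 79.7 CPM in the sgCtrl libraries. The groups did not overlap, and the rise was 1.23-fold (log2 fold change 0.29 with an SE of 0.075, edgeR adjusted p = 0.0112). Its call ended without sgCtrl replicate 3 (edgeR adjusted p = 0.0528), without sgITPR3 replicate 1 (0.0654), without sgITPR3 replicate 2 (0.0609) and with the ALB covariate (0.20, adjusted p = 0.188). SLC39A7, which encodes ZIP7 of the endoplasmic reticulum, was at 49.3 ± 1.30 CPM in sgITPR3 and 56.3 ± 2.02 CPM in sgCtrl and did not pass (edgeR adjusted p = 0.0611). SLC39A10, named after its values were seen, encodes ZIP10 and was at 37.9, 42.1 and 51.7 CPM in the sgITPR3 libraries and at 36.9, 36.9 and 36.4 CPM in the sgCtrl libraries (log2 fold change 0.26, edgeR adjusted p = 0.0838). It passed without sgITPR3 replicate 1 (edgeR adjusted p = 0.0324) and with no filter on low counts (0.0497). SLC39A1, which encodes ZIP1, was at 4.77 ± 0.625 CPM in sgITPR3 and 7.08 ± 2.28 CPM in sgCtrl and did not pass (edgeR adjusted p = 0.0826), but it passed as lower without sgCtrl replicate 2 (log2 fold change -0.82, edgeR adjusted p = 0.00235), with the replicate number as a block (-0.53, 0.0459) and with no filter on low counts (-0.58, 0.0158). With the ALB covariate it stood at -0.036 on the log2 scale (edgeR adjusted p = 0.952). Of its 251 stretches of 50 bases, 210 were shared with the gene ENSG00000285779, so its counts are uncertain.

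Most genes of copper and iron handling did not pass, as among all genes tested, of which 23.5% passed. Of 11 listed copper genes, 10 were tested, 1 fell, 1 rose and 8 did not pass. ATOX1, the copper chaperone of the secretory pathway, fell to 88.2 ± 5.77 CPM in sgITPR3, against 114.5 ± 12.9 CPM in sgCtrl (log2 fold change -0.38, edgeR adjusted p = 0.00552). COX17, the copper chaperone of mitochondria, rose to 152 ± 5.06 CPM in sgITPR3, against 127 ± 2.21 CPM in sgCtrl (log2 fold change 0.26, edgeR adjusted p = 0.00901). With ALB as a covariate both calls were lost, at edgeR adjusted p = 0.180 for ATOX1 and 0.0698 for COX17, and that of COX17 also without sgITPR3 replicate 2 (0.0652). Of 14 iron genes, 13 were tested and 2 fell. SLC25A37, the iron importer of mitochondria, fell to 101 ± 11.7 CPM in sgITPR3, against 145 ± 4.70 CPM in sgCtrl (log2 fold change -0.52, edgeR adjusted p = 3.43e-04). NCOA4, the receptor that sends ferritin for breakdown, had a log2 fold change of -0.22, and it no longer passed when any library other than sgCtrl replicate 1 was left out or ALB was a covariate (edgeR adjusted p = 0.0584 to 0.0996). No iron gene rose by the adjusted p of edgeR, DESeq2 or limma-voom, and 2 were higher at an unadjusted edgeR p under 0.05.

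Lists of genes tied to other inducers of metallothioneins were examined. They hold known response genes and also the receptor or factor genes NR3C1, STAT3, IL6R and IL6ST. The activity of the inducers was not tested. Of 10 genes of the glucocorticoid list, 9 were tested, 3 fell, 2 rose and 4 did not pass, while 23.5% of all genes tested passed. Those that did not pass were FKBP5, KLF9, NR3C1 and ERRFI1, with log2 fold changes of -0.13, -0.17, -0.011 and -0.27. PER1 and CEBPD rose, PER1 to 43.7 ± 2.72 CPM in sgITPR3, against 29.3 ± 5.07 CPM in sgCtrl (log2 fold change 0.58, edgeR adjusted p = 0.00168). CEBPD was at 156 ± 5.77 CPM in sgITPR3 and 103.7 ± 5.28 CPM in sgCtrl (log2 fold change 0.59, edgeR adjusted p = 2.29e-05). DUSP1, TSC22D3 and SGK1 fell, with log2 fold changes of -0.28, -0.34 and -0.77. The call of DUSP1 was lost without sgCtrl replicate 1 (edgeR adjusted p = 0.0602), without sgITPR3 replicate 1 (0.0711) and with the ALB covariate (0.256). TSC22D3 lost its call without sgCtrl replicate 1, sgITPR3 replicate 1 or sgITPR3 replicate 2 (edgeR adjusted p = 0.105, 0.142 and 0.110) and with the ALB covariate (0.220), and SGK1 without sgCtrl replicate 3 (0.0622) and with the ALB covariate (0.111). Of 10 genes of the STAT3 and acute phase list, 9 were tested, 4 fell and 5 did not pass. Over all genes tested, 11.9% passed as lower and 11.6% as higher. Those of the list that fell were BCL3, PIM1, SOCS3 and JUNB, with log2 fold changes of -1.25, -0.50, -0.35 and -0.34. SOCS3, the feedback inhibitor of interleukin 6 signalling, was at 21.7 ± 0.424 CPM in sgITPR3 and 27.7 ± 0.495 CPM in sgCtrl (edgeR adjusted p = 0.00788, and 0.0609 with the ALB covariate). Of those that did not pass, FGG had a log2 fold change of 1.37 (edgeR adjusted p = 0.150) and LCN2 of -0.98 (0.128). STAT3, IL6R and IL6ST had log2 fold changes of -0.068, -0.033 and 0.051. None of that list rose by the adjusted p of edgeR, DESeq2 or limma-voom, or at an unadjusted edgeR p under 0.05. In these 2 lists, TSC22D3, SGK1, SOCS3 and the genes that did not pass were named after their values were seen.

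Over the 6 libraries of both groups, the Pearson r of log2 CPM was 0.96 between MT2A and MT1E, 0.91 between MT2A and MT1X, and 0.70 between MT2A and MT1F. Of the transporters, the r with MT2A was 0.82 for SLC39A4 and 0.80 for SLC39A6, while it was 0.57 for SLC39A14 and 0.43 for SLC30A1. Values of a pair share the library, and each r is over both groups, so the difference between the groups enters it. No r within a group was calculated. Within sgCtrl, MT2A was highest in replicate 1, MT1X and MT1F in replicate 2, and MT1E in replicate 3. Within sgITPR3, MT2A, MT1E and MT1X were highest in replicate 3 and MT1F in replicate 1. Of 10631 genes averaging 5 CPM or more, the 5 most like MT2A over the 6 libraries were PPP1R18, TFAP2C, KLF6, PPARD and S100A6, each with r above 0.99. Among them S100A6, which encodes a calcium-binding protein, was at 1220.0 CPM in sgITPR3 and 2099.7 CPM in sgCtrl on average. KLF6, a zinc finger transcription factor gene, averaged 194 CPM in sgITPR3 and 413 CPM in sgCtrl. The 5 most like SLC39A6 were SDHC, NAB2, MFN1, EEF1AKMT2 and PELO, with r from 0.988 to 0.996.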

How the data were processed

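Per the labels' protocols, tumour cells were isolated from collagenase-digested livers, RNA was purified with a Norgen kit, and libraries were made with the Lexogen 3' FWD kit. Values are gene counts as deposited by the authors. Per the submitters' processing notes, STAR 2.6.0a, featureCounts 1.6.3, DESeq2 and GRCh38 were used, while annotation release, strand setting and handling of multiply aligned reads are not stated in the sources used here. The analysis used R 4.3.3, edgeR 4.0.16, limma 3.58.1 and DESeq2 1.42.0.

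Genes were kept by filterByExpr (minimum count 10), which held 99.8% to 99.9% of counts. TMM scaling (factors 0.961 to 1.03) and the edgeR quasi-likelihood F test compared sgITPR3 with sgCtrl without covariates, with Benjamini-Hochberg adjustment over every tested gene and a threshold of 0.05. The SE is the absolute log2 fold change over the square root of F. CPM are counts over scaled library size. Libraries of a group had a chi-square per degree of freedom of 6.07 to 11.4, so none repeats another.

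Positions are those of GENCODE 29, and 58876 identifiers received a symbol. Members and lists were chosen with earlier results of these data known. Besides members, the text names up to 3 genes of each list with the smallest adjusted p and a mean of at least 5 CPM, some of them not detailed, the 5 genes most like the most abundant member metallothionein and transporter by Pearson r, and genes said to be named after their values were seen. Alternatives were RLE scaling, 2 other filters, DESeq2, limma-voom, ALB as a covariate, omission of each library in turn, and a block for the replicate number. The procedure was tested on simulated data.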

Additional observations from a re-analysis of the deposited data

How the results depend on the processing

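MT2A, MT1E, MT1X and MT1A kept their fall and their call in all 13 alternatives, with log2 fold changes of -0.91 to -0.72, -0.67 to -0.54, -0.83 to -0.50 and -0.94 to -0.73. MT1F lost its call in the 3 fits named above and kept it in 10. The number of members called lower was 3 to 4 when single libraries were left out, and 4 in the other alternatives. The summed metallothionein level had a log2 ratio of -0.77, between -0.84 and -0.72 without single libraries. Over all genes, 1882 were lower and 1835 higher. With ALB as a covariate these were 993 and 1012, and without single libraries 1196 to 2140 and 1135 to 2121, lowest without sgITPR3 replicate 2. For MTF1 the sign turned with ALB as a covariate (0.063) and for SLC30A1 without sgCtrl replicate 1 (0.0058, against down to -0.092 without other single libraries), and for BBS2 without sgCtrl replicate 2 (0.046, against down to -0.073 without other single libraries and -0.11 with ALB as a covariate), and the cause was not tested. SLC30A10 kept its rise in all 13, at 1.84 to 1.98. Over 47 other genes, 547 of 611 alternative values kept direction and call, 41 lost the call and 22 gained it.

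Replicate numbers are shared by the labels, and same-numbered libraries correlated in their deviations at -0.030, 0.12 and 0.17. Replicates 2 and 3 of sgITPR3 correlated best with the sgCtrl library of the same number, and replicate 1 with sgCtrl replicate 2 (0.089). These low values do not show whether the libraries were paired. With the replicate number as a block, 1981 genes were lower and 1896 higher, and 4 members fell and 0 rose. A floor of 3 counts was 0.121 to 0.161 CPM, which limits MT1G and other genes that were not tested.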
